A study of Mus musculus with 3 samples.

Results

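The genes described here are the potassium channel genes of the mouse, read in single cells of the nucleus accumbens. They were taken as every gene whose symbol begins with Kcn followed by letters and a digit and that had at least 10 unique molecular identifiers (UMIs) over all deposited cells. A UMI is a short barcode given to each captured RNA, so that amplified copies are not counted again. Of 28001 features, 98 had such a symbol and 77 reached the minimum. The remaining 21 stayed below it, 8 of them at 0 UMIs. Just inside the minimum lay Kcnh6 with 11 UMIs and Kcnk4 and Kcnk5 with 13 each, and just outside lay Kcnq1 with 9, Kcnj13 with 8 and Kcnk15 with 7. The 77 genes comprised 62 that encode a pore-forming subunit, 12 that encode an auxiliary subunit and 3 non-coding transcripts (Kcnq1ot1, Kcnmb4os2 and Kcnd3os). Kcnq1ot1 overlaps Kcnq1, and whether the counting used strand is not given in the sources used here. Together they held 66245 UMIs, from 11 to 3890 per gene with a median of 312.

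The cells came from Thy1::ChR2 mice, in which a Thy1 promoter drives the light-gated cation channel channelrhodopsin, and were taken from a coronal dissection of 400 um that held the nucleus accumbens. Per the labels, all 3 libraries carried the FLiCRE label, a calcium- and light-gated transcriptional reporter, and received optogenetic stimulation in the accumbens. They form 1 group, Thy1LatNac_FLiCRE. No unstimulated or unlabelled group is used here, the label and the stimulation are shared by all cells compared, and every comparison below is between cell classes of the same libraries. The labels give neither age nor sex and do not say whether the libraries came from separate mice. The p-values rest on how much class differences vary from library to library, and that variation may be technical. Nothing ties a barcode suffix to a numbered replicate, so the libraries are numbered 1 to 3 by suffix for naming only.

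Potassium channels let potassium leave or enter cells along its gradient and so set the resting potential, end the action potential and limit repetitive firing. Voltage-gated subunits (the Kv families, encoded by Kcna, Kcnb, Kcnc, Kcnd, Kcnq and Kcnh genes) open on depolarisation, inward rectifiers (Kcnj) hold the resting potential, two-pore-domain channels (Kcnk) carry leak current, and calcium- or sodium-activated channels (Kcnma, Kcnn, Kcnt) follow ion entry. Striatal spiny projection neurons are known for strong inward rectification and fast-inactivating Kv4 current, fast-spiking interneurons for Kv3 current, astrocytes for inwardly rectifying potassium uptake, and pericytes for ATP-sensitive potassium channels.

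The pore of these channels is marked by a short conserved filter, whose coding sequence is shown for 3 genes that the results below turn on. Each line gives 30 coding bases, read 5′ to 3′ on the coding strand from GENCODE M21 transcripts (GRCm38, the Ensembl name of mm10), with the 3 codons of the filter centre in capitals.
Kcnj10: tcccagaccaccatcGGCTATGGCttccgc
Kcnj8: gttcaagtgaccattGGGTTTGGAgggaga
Kcnc1: accatgacgacactgGGCTATGGAgacatg
These windows lie in coding exons at chr1:172369293-172369322 (plus strand, Kcnj10), chr6:142566442-142566471 (minus, Kcnj8) and chr7:46427964-46427993 (plus, Kcnc1). The capitals read a tyrosine codon between the glycine codons in Kcnj10 and Kcnc1, and a phenylalanine codon in Kcnj8. An in-frame search for ACNNNNGGNTATGGN and the same pattern with TAC, TTT or TTC in place of TAT, or TCN in place of ACN, matched 55 of the 62 pore-forming genes, 0 of the 12 auxiliary genes and 441 of 21575 coding genes (2.04%). The 7 pore-forming genes without a match were Kcnh1, Kcnh2, Kcnh3, Kcnh4, Kcnh6, Kcnh7 and Kcnh8, all of the EAG type, and no match says only that these letters are not in the coding sequence searched. Among the genes with 1 match, 43 held the tyrosine codon and 5 the phenylalanine codon (Kcnh5, Kcnj8, Kcnt1, Kcnt2 and Kcnu1).

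Cells were gated by 8 marker genes per class, none of them a potassium channel gene, so no channel count entered a gate directly. The 3 libraries gave 2306, 5783 and 1834 usable cells with 2788685, 14563414 and 6267259 UMIs. Of these 9923 cells, 8010 fell into 10 classes: 3961 spiny, 41 Pvalb, 45 Sst-Npy, 295 glutamatergic, 931 astrocyte, 160 oligodendrocyte precursor, 1316 oligodendrocyte, 496 microglia, 465 endothelial and 300 mural cells. A further 1506 passed no gate and 407 fell to other lists. A gated class is a range and not a type: 5.47% (oligodendrocytes) to 45.4% (glutamatergic) of its cells lay at the minimum of 3 markers or led the next list by 1 marker. Pvalb cells numbered 8, 26 and 7 and Sst-Npy cells 9, 29 and 7 in libraries 1 to 3, which limits both classes. Levels are CPM (UMIs per 1000000) of the summed cells of 1 class in 1 library, given for libraries 1, 2 and 3 in that order, and means carry the SD over n = 3 libraries. UMIs at the 3′ end do not measure genes per length, so levels are compared between classes and not between genes. The whole list of 8 spiny markers stood in other classes at 3.46% (oligodendrocytes) to 10.1% (glutamatergic) of its level in spiny cells. That share was highest in library 2 in all 9 other classes, for example 8.22% in oligodendrocytes of library 2 against 1.77% and 1.78% in libraries 1 and 3. The part of RNA from other cells in the values below was not tested, and the spiny list's share is set beside the results it touches. Pairs of libraries shared 7 to 22 barcode sequences.

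Most channel genes were highest in a neuron class. By mean CPM, the highest class was spiny for 16 of the 77 genes, glutamatergic for 16, Pvalb for 14 and Sst-Npy for 7, against 8 for astrocytes, 6 for precursors, 4 for mural cells, 3 each for oligodendrocytes and microglia and 0 for endothelial cells. For 19 genes, or 7 in spiny, 3 in glutamatergic, 3 in mural, 2 in Pvalb, 2 in astrocyte and 1 each in oligodendrocyte and microglial cells, every library of the highest class lay above every library of every other class. The same held for 17.4% of the 15647 features with at least 10 UMIs. The 19 were Kcnip2, Kcnj4, Kcnk2, Kcnd2, Kcnj2, Kcnh4 and Kcng2 in spiny cells, Kcnab2, Kcnf1 and Kcnk4 in glutamatergic, Kcnc1 and Kcnab1 in Pvalb, Kcne1l and Kcnj14 in astrocytes, Kcnj8, Kcne4 and Kcnmb1 in mural cells, Kcnk13 in oligodendrocytes and Kcnk6 in microglia. In Pvalb, Sst-Npy and precursor cells 3 UMIs over the class are 17.1, 18.3 and 10.5 CPM. The highest class means of Kcnk4 (8.38 CPM), Kcng2 (6.87 CPM) and Kcnj14 (10.2 CPM) lay below these levels, as did Kcnk6 in microglia of library 1. For these genes the counts cannot place those small classes below the highest class.

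**Figure D1:**
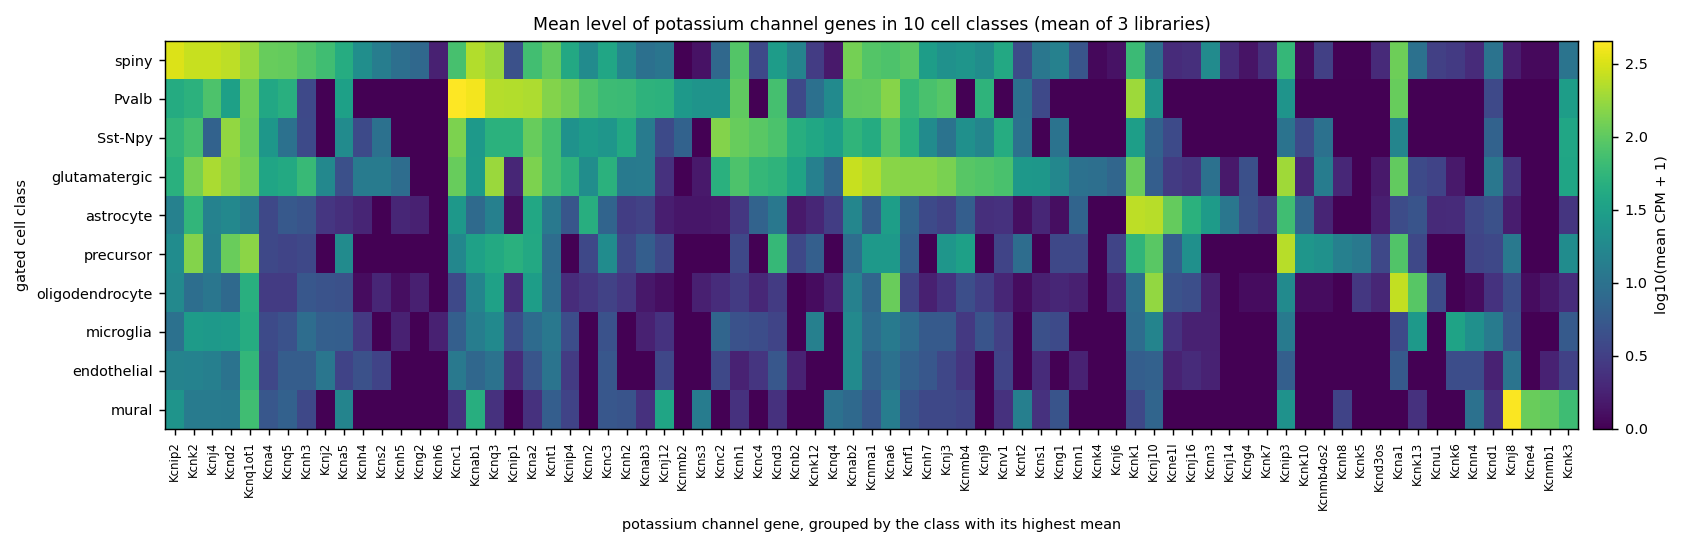
Mean level of the potassium channel genes reported here (columns) in each of 10 gated classes (rows) over 3 libraries, as log10 of CPM plus 1, with genes grouped by their highest class. The block of spiny genes stands at the left, and the 4 mural genes Kcnj8, Kcne4, Kcnmb1 and Kcnk3 stand at the right.

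The first comparison set the mean of the 4 neuron classes against the mean of the 6 non-neuronal classes. Of the 77 genes, 43 passed the filter on low counts. The 34 left out had class means of at most 67.9 CPM (Kcnj2) and are described by their levels only. In neurons 32 genes were higher and 2 were lower, where 61.0% of all 8434 genes tested were called in either direction, 28.6% higher and 32.4% lower (edgeR quasi-likelihood test, adjusted p under 0.05 over all genes). The median log2 fold change was 2.28 over the 43 genes and -0.14 over all genes. Every tested Kv1, Kv4 and Kv7 gene and every tested calcium- or sodium-activated gene was higher, that is 4 of 4, 2 of 2, 3 of 3 and 3 of 3. Being called higher did not make a gene neuronal alone. The Kv1 gene Kcna1 had its highest mean in oligodendrocytes, at 257 CPM against 117 CPM in spiny cells, and had 0 UMIs in mural cells. Kcnc1, a Kv3 subunit of fast-spiking cells, stood at 193 ± 50.3 CPM in neurons, against 10.2 ± 6.23 CPM elsewhere (edgeR log2 fold change 3.41 with SE 0.27, adjusted p = 2.42e-17). Kcnq3, a subunit of the M current that limits firing, stood at 159 ± 32.3 against 18.8 ± 2.67 CPM. Kcnma1, the large-conductance calcium-activated (BK) pore, stood at 113 ± 19.4 against 9.22 ± 5.16 CPM. These 3 genes were higher in neurons in 3 of 3 libraries. Lower in neurons were Kcnj10, the main inward rectifier of glia, at 10.6 ± 7.34 against 86.5 ± 17.5 CPM (edgeR log2 fold change -2.25 with SE 0.43, adjusted p = 7.08e-06), and Kcnj8, the pore of a vascular ATP-sensitive potassium channel, at 0.534 ± 0.473 against 77.9 ± 35.4 CPM (adjusted p = 0.0189). The call of Kcnj8 was lost without library 3 (adjusted p = 0.0687), without library 1 (adjusted p = 1), with a stricter gate of at least 4 markers and a lead of 2 (adjusted p = 1) and without TMM, edgeR's scaling of the sums to each other (adjusted p = 0.0531).

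The comparison weights each class alike on a log scale, so a class with 0 UMIs leaves it open at that end. Among the 43 tested genes, 16 had such a class, of which 9 were called and 7 had an adjusted p of 1; of the 27 with UMIs in every class, 25 were called. For genes with a class at 0 the CPM is given and no fold. Among 18 genes listed as partners of the channels (sulfonylurea receptors, Kv4 and Kv1 partners, HCN channels, sodium pumps and chloride cotransporters), 16 were tested, 10 were higher and 3 lower in neurons. The higher genes included Dpp6, a Kv4 partner (195 ± 51.9 against 22.4 ± 9.80 CPM). The lower genes included the glial pump subunit Atp1b2 and the chloride cotransporter Slc12a2. All comparisons below draw on the same 30 sums of class and library, and are not independent of each other.

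Spiny cells, the projection neurons of the accumbens, were set against the other 3 neuron classes. There 12 genes were higher and 5 lower, where 18.8% of all genes were called, 14.2% higher and 4.67% lower (edgeR). Over the tested channel genes the median log2 fold change was 0.48, and over all genes 0.31. The count fell to 11 without library 3, 9 higher and 2 lower. DESeq2 gave 7 higher and 6 lower, and scaling by totals without TMM gave 9 higher and 6 lower, so the share that was higher moved with the scaling.

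Genes high in spiny cells came from several families, none of which was raised as a whole. Of 2 tested Kv4 pores 1 was higher and 1 lower, and of 4 KChIP subunits 1 was higher and 1 lower. Of 5 tested inward rectifiers 1 was higher, and of 4 tested two-pore-domain genes 2 were higher and 1 was lower. Kcnip2, an auxiliary subunit (KChIP) that binds Kv4 pores and raises their surface level, stood at 421, 250 and 315 CPM in spiny cells, 0, 76.8 and 50.9 in Pvalb, 74.9, 34.9 and 56.0 in Sst-Npy and 35.3, 72.8 and 34.2 in glutamatergic cells. Every spiny library lay above every other library (edgeR log2 fold change 3.21 with SE 0.34, adjusted p = 1.47e-11). In the 6 non-neuronal classes Kcnip2 stood at 2.68% to 6.83% of its spiny level, beside 3.46% to 4.88% for the spiny marker list there. Kcnd2, a Kv4 pore that carries fast-inactivating current, stood at 219, 251 and 265 CPM in spiny cells against 118 ± 39.6 CPM in the other neurons (edgeR log2 fold change 1.55 with SE 0.33, adjusted p = 0.000355). Its other-neuron levels were uneven, from 31.3 ± 54.2 CPM in Pvalb cells to 166 ± 37.5 CPM in Sst-Npy cells. The call was lost with no replicate block (adjusted p = 0.119) and with DESeq2 (adjusted p = 0.0789).

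Kcnj4, a strong inward rectifier, stood at 320, 213 and 271 CPM in spiny cells. Its level was 212, 203 and 201 CPM in glutamatergic cells, 106, 85.4 and 50.9 in Pvalb cells and 0, 17.4 and 0 in Sst-Npy cells, so the spiny and glutamatergic libraries lay next to each other without overlap. Against the 3 other neuron classes edgeR gave a log2 fold change of 2.59 (SE 0.38, adjusted p = 2.53e-07). Kcnj2, another strong inward rectifier, stood at 81.1, 39.2 and 83.4 CPM in spiny cells and 8.84, 18.2 and 21.8 in glutamatergic cells. It had 0 UMIs in Pvalb and Sst-Npy cells, which allows up to 17.1 and 18.3 CPM there (3 UMIs over the class, for counting error only), and it was not tested because it failed the filter on low counts. In both genes every spiny library lay above every library of the other classes.

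Kcnk2, a two-pore-domain leak channel, stood at 272, 258 and 286 CPM in spiny cells (edgeR log2 fold change 2.49 with SE 0.48, adjusted p = 0.00017). It was uneven elsewhere: 8.84, 220 and 160 CPM in glutamatergic cells and 32.2, 147 and 257 CPM in precursors, the library numbered 1 being lowest in both. Kcna4, a Kv1 pore of A-type current, stood at 116, 89.0 and 118 CPM (edgeR log2 fold change 2.31 with SE 0.42, adjusted p = 1.13e-05) and Kcnh3, an EAG-type pore, at 79.6, 85.3 and 92.7 CPM (edgeR log2 fold change 2.98 with SE 0.57, adjusted p = 5.39e-05). The mean of Kcnh3 was 85.9 CPM in spiny and 60.1 CPM in glutamatergic cells, where it was also called higher. Its spiny libraries did not all lie above those of the other classes, so the fold does not describe spiny against glutamatergic cells. Kcnab1, a cytosolic beta subunit of Kv1 channels, stood at 229, 211 and 221 CPM in spiny cells, below the Pvalb cells but above the Sst-Npy and glutamatergic cells (edgeR log2 fold change 1.72 with SE 0.34, adjusted p = 9.99e-05). These 4 calls held under all 10 alternatives run, as did those of Kcnip2 and Kcnj4.

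Other spiny calls were less steady. Kcna1, a Kv1 pore, stood at 122, 62.5 and 166 CPM (adjusted p = 0.0119), and lost its call under 5 of 10 alternatives, with DESeq2 (0.0757), without TMM (0.0670), with no replicate block (0.132), and without library 1 (0.0835) or library 3 (0.102). Kcnk13, a leak channel at 7.24, 10.1 and 9.22 CPM, lost it with DESeq2 (0.280) and without library 2 (0.267) or library 3 (0.0851). Kcnq5 and the non-coding Kcnq1ot1 were also called higher, and are named here after their values were seen. A pair of Kv3 pores was lower in spiny cells. Kcnc1 stood at 70.9, 78.1 and 74.7 CPM against 232 ± 68.2 CPM in the other neurons (edgeR log2 fold change -0.91 with SE 0.29, adjusted p = 0.016). That call was lost under 5 of 10 alternatives, with DESeq2 (adjusted p = 0.0518), no low-count filter (0.0557), no replicate block (0.100), the stricter gate (0.16) and without library 3 (0.356). Kcnc2, another Kv3 pore, stood at 0, 10.1 and 10.7 CPM against 71.1 ± 62.5 CPM (edgeR log2 fold change -2.88 with SE 0.50, adjusted p = 1.03e-05; 0.228 with DESeq2), with 0 UMIs in any neuron class of library 1. Kcnip1 (0.971 without library 2, 0.0654 with the stricter gate), Kcnk3 (0.412 without library 2, 0.0902 without library 3) and Kcnd3 (0.0590, 0.278 and 0.205 without libraries 1, 2 and 3, 0.0632 with no low-count filter, 0.0858 with no replicate block) were lower with calls that did not hold in each fit. Of the 16 partners tested, 1 was higher and 2 were lower, among the latter Amigo1 (adjusted p = 0.0116; 0.305 without library 3, 0.0767 with no replicate block and 0.0571 with the stricter gate).

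**Figure D2:**
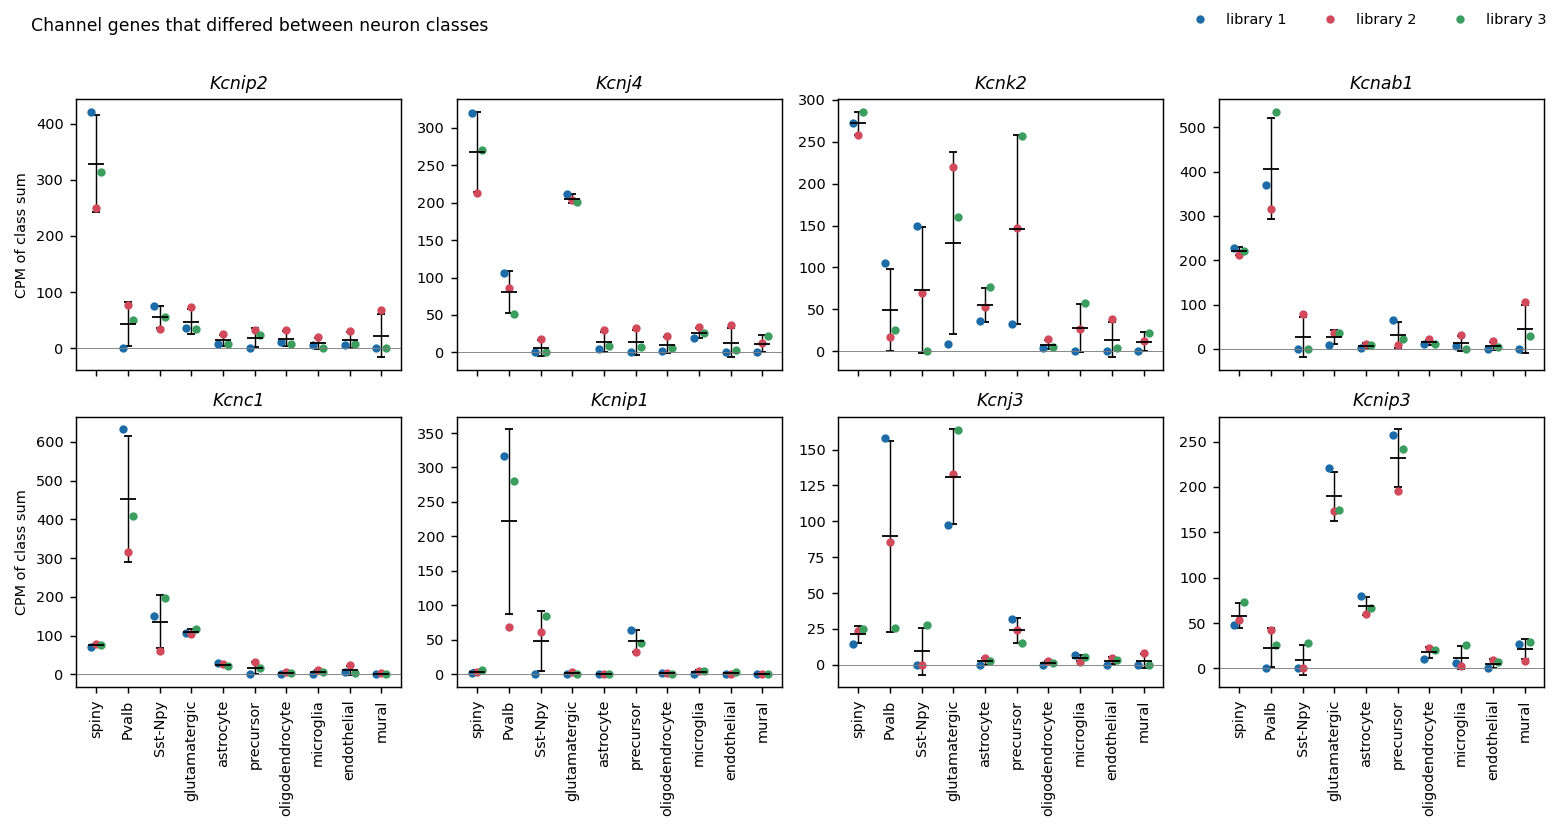
CPM of 8 channel genes in the summed cells of each of 10 classes, one panel per gene, with 1 dot per library and the mean and SD over 3 libraries in black. Kcnip2 and Kcnk2 stand highest in spiny cells, Kcnc1 and Kcnab1 in Pvalb cells, Kcnj3 in glutamatergic cells and Kcnip3 in glutamatergic cells and precursors.

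Pvalb cells, fast-spiking interneurons, were set against the other neurons. Here 3 genes were higher and 2 lower, where 4.96% of all genes were called, 2.37% higher and 2.58% lower (edgeR). The median log2 fold change was -0.19 over the tested genes and -0.21 over all genes. The count was 3, all higher, with DESeq2 and without library 3.

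The 3 higher genes held their calls under all 10 alternatives run. Kcnc1, the Kv3 pore that allows rapid repolarisation in fast-spiking cells, stood at 633, 316 and 408 CPM in Pvalb cells. In Sst-Npy cells it was at 150, 61.0 and 196 CPM and in glutamatergic cells at 106, 105 and 117 CPM, so every Pvalb library lay above every other (edgeR log2 fold change 1.85 with SE 0.33, adjusted p = 4.09e-05). Its 65 UMIs in this class came from 28 of the 41 cells. Kcnab1 stood at 369, 316 and 535 CPM, above every library of the spiny class (edgeR log2 fold change 2.22 with SE 0.41, adjusted p = 0.000178). Kcnip1, a KChIP subunit, stood at 317, 68.3 and 280 CPM against 17.6 ± 15.3 CPM (edgeR log2 fold change 4.27 with SE 0.58, adjusted p = 7.29e-08). Its level in library 2 lay below that of Sst-Npy cells in library 3 (84.0 CPM), so these classes overlapped. Kcnv1, a silent Kv subunit that modifies other pores, had 0 UMIs in Pvalb cells, which allows up to 17.1 CPM, against 53.2 ± 4.31 CPM in the other neurons (edgeR adjusted p = 0.014; 0.0524, 0.347 and 0.0637 without libraries 1, 2 and 3, 0.0727 with DESeq2 and 0.107 with the stricter gate). Kcnd2 was at 0, 93.9 and 0 CPM (edgeR adjusted p = 0.0133; 0.114 without library 1, 0.113 without library 3, 0.0621 with DESeq2, 0.213 with no replicate block and 0.110 with the stricter gate). Of 16 partners tested, 1 was higher and 1 was lower.

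Sst-Npy interneurons, set against the other neurons, had 3 higher and 5 lower genes, where 3.19% of all genes were called, 1.66% higher and 1.53% lower (edgeR). Over the tested channel genes the median log2 fold change was -0.76, and over all genes -0.27. The count was 4 without library 1, 3 without library 2, of which 2 were among the 8, and 4 without library 3. Scaling by totals without TMM left 3 higher and 1 lower, and DESeq2 2 higher and 1 lower. Kcnj4 was lower under all 10 alternatives run, with 2 UMIs in all, at 0, 17.4 and 0 CPM against 185 ± 24.5 CPM (edgeR log2 fold change -4.08 with SE 0.80, adjusted p = 0.000461).

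Among the lower calls that did not hold throughout, Kcnip3, a KChIP subunit, and Kcnj3, the inward rectifier opened by G proteins, had 1 UMI each in Sst-Npy cells, both from library 3 at 28.0 CPM. Without library 2 their adjusted p rose to 0.655 and 0.634, without library 1 to 0.0545 and 0.0761, with DESeq2 to 0.135 and 0.147, and without TMM to 0.0524 and 0.0681. With no replicate block that of Kcnj3 was 0.0630. Kcna1 (0, 17.4 and 28.0 CPM against 109 ± 51.9 CPM) lost its call without any 1 library (0.0757, 0.107 and 0.304), and Kcnq3 (74.9, 69.8 and 0 CPM against 195 ± 56.8 CPM) without library 3 (0.401). Both also lost it with DESeq2 (0.152 and 0.0869), without TMM (0.0584 and 0.0663) and with no replicate block (0.131 and 0.0653). The higher genes were Kv3 pores and Kcnip1. Kcnc2 stood at 0, 122 and 308 CPM (edgeR log2 fold change 2.30 with SE 0.55, adjusted p = 0.00716), with 25 UMIs in 13 of 45 cells. That call was lost under 4 of 9 alternatives, without library 3 (adjusted p = 0.433), with DESeq2 (0.508), with no replicate block (0.0747) and with the stricter gate (0.0561). In library 1 Kcnc2 was at 0 in all classes but the endothelial cells, so its UMIs in this class come from libraries 2 and 3. Kcnc4, at 0, 87.2 and 196 CPM, and Kcnip1, at 0, 61.0 and 84.0 CPM, were called without the same direction in all libraries and fall outside the rule for named genes. The BK pore Kcnma1 stood at 0, 43.6 and 84.0 CPM and was not called. Of 16 partners tested, Hcn3, a pacemaker channel, was higher at 150, 52.3 and 56.0 CPM against 9.66 ± 5.71 CPM (edgeR adjusted p = 0.0262; 0.144 without library 1, 0.0988 without library 3, 0.0911 with no low-count filter and 0.187 with the stricter gate). Hcn3 passed the filter on low counts only through the Sst-Npy sums, so its p-value is not support apart from these levels.

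Glutamatergic cells, which are excitatory neurons marked by vesicular glutamate transporters and cortical factors, had 13 higher and 2 lower genes, where 11.6% of all genes were called, 9.79% higher and 1.79% lower (edgeR). The median log2 fold change was 0.79 over the tested genes and 0.24 over all genes. Without each library in turn the count was 18, 11 and 12. Spiny markers stood in this class at 5.50%, 15.8% and 11.5% of their spiny level in libraries 1 to 3, the highest share of any class in libraries 2 and 3, and 2 of the 8 spiny markers were seen in the median cell.

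Kcnip3 stood at 221, 174 and 174 CPM in glutamatergic cells against 30.1 ± 13.3 CPM in the other neurons (edgeR log2 fold change 3.11 with SE 0.40, adjusted p = 1.04e-08). Kcnj3 stood at 97.2, 133 and 163 CPM against 40.1 ± 16.0 CPM (edgeR log2 fold change 2.80 with SE 0.40, adjusted p = 1.72e-07). Kcnh7, an EAG-type pore, stood at 79.5, 176 and 185 CPM against 41.7 ± 5.94 CPM (edgeR log2 fold change 2.29 with SE 0.33, adjusted p = 2.56e-07). All 3 were higher in 3 of 3 libraries and held under all 10 alternatives run, although in Pvalb cells Kcnj3 reached 158 CPM in library 1. Kcnj3 would not have passed the filter on low counts without the glutamatergic sums, so its p-value is not support apart from these levels. Kcnma1, the BK pore, stood at 283, 169 and 210 CPM against 77.6 ± 42.2 CPM (edgeR log2 fold change 1.49 with SE 0.34, adjusted p = 0.000962), and Kcnmb4, the neuronal BK beta subunit, at 177, 42.0 and 57.6 CPM against 14.5 ± 11.1 CPM (edgeR adjusted p = 0.0026; 0.0520 without library 1), with 0 UMIs in Pvalb cells. Kcnv1 stood at 61.9, 89.6 and 82.5 CPM against 27.3 ± 8.17 CPM (edgeR adjusted p = 5.84e-05) and Kcnj4 at 212, 203 and 201 CPM against 118 ± 20.6 CPM (edgeR log2 fold change 1.93 with SE 0.41, adjusted p = 0.000435). The mean of Kcnj4 was 268 CPM in spiny and 205 CPM in glutamatergic cells, and every spiny library lay above every glutamatergic library. The fold of Kcnj4 thus does not describe glutamatergic against spiny cells. Further calls, named after their values were seen, included Kcnj9, Kcnab2, Kcnf1, Kcnc4 and Kcnh3. Kcnj9, like Kcnj3, would not have passed the filter without the glutamatergic sums.

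Both lower genes were auxiliary subunits that were high in Pvalb cells. Kcnip1 had 2 UMIs in glutamatergic cells, at 0, 2.80 and 0 CPM against 91.2 ± 41.6 CPM (edgeR log2 fold change -4.32 with SE 0.79, adjusted p = 3.29e-05). Kcnab1 stood at 8.84, 36.4 and 35.8 CPM against 218 ± 29.7 CPM (edgeR log2 fold change -2.17 with SE 0.45, adjusted p = 0.000474). Without library 2 that value was -0.10 (adjusted p = 0.975). In that smaller fit Sst-Npy cells had 0 UMIs of Kcnab1. Of 16 partners tested, 2 were higher, among them Lrrc55, a BK gamma subunit (44.2, 50.4 and 74.7 CPM against 16.0 ± 9.51 CPM). Lrrc55 also would not have passed the filter on low counts without the glutamatergic sums, so its call is not support apart from these levels.

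Spiny cells were split by 5 markers each of the D1 and D2 dopamine receptor pathways into 1905 D1 and 1255 D2 cells. Of 41 tested channel genes 3 were called (7.32%), 1 higher and 2 lower in D1 cells. Of all 9044 genes 3.89% were called, 2.13% higher and 1.76% lower (edgeR). Over the tested channel genes the median log2 fold change was 0.07, and over all genes -0.00. Kcnk2 stood at 250, 233 and 218 CPM in D1 cells and 323, 311 and 389 CPM in D2 cells, with no overlap (edgeR log2 fold change -0.57 with SE 0.09, adjusted p = 9.27e-07). Without library 3 it was -0.43 (adjusted p = 0.116). Kcna6, a Kv1 pore, stood at 160, 66.4 and 69.3 CPM in D1 and 88.4, 33.2 and 62.1 CPM in D2 cells (edgeR log2 fold change 0.72 with SE 0.15, adjusted p = 0.000756; 0.38 and adjusted p = 0.754 without library 2, and adjusted p = 0.369 with the stricter gate). Kcna2, another Kv1 pore, was called lower (edgeR log2 fold change -0.51 with SE 0.15, adjusted p = 0.0328) although it was lower in only 2 of 3 libraries, and it lost the call without library 2 (0.602) or library 3 (0.751), with no low-count filter (0.226) and with the stricter gate (0.395). The other 38 tested genes lay between -0.47 and 0.43 on the log2 scale. DESeq2 called Kcnk2 alone. With no replicate block edgeR called 0 genes, with 1 at an unadjusted p under 0.05, while DESeq2, which kept the block, had 2 at that level and 1 call. Kcnip2 (330 ± 83.9 against 335 ± 67.7 CPM) and Kcnj2 (70.5 ± 29.7 against 70.3 ± 29.7 CPM) overlapped between D1 and D2 cells. Of 13 partners tested, the pump subunit Atp1b1 was higher in D1 cells (0.25, edgeR adjusted p = 0.0068; 0.224 without library 2, 0.760 without library 3, 0.128 with no low-count filter, 0.296 with the stricter gate, 0.666 with DESeq2 and 1 with no replicate block).

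Astrocytes, set against the other 5 non-neuronal classes, had 9 higher and 2 lower genes, where 35.1% of all genes were called, 21.8% higher and 13.2% lower (edgeR). The median log2 fold change was 0.13 over the tested genes and 0.04 over all genes. Kcnj10, which carries potassium uptake, stood at 236, 141 and 317 CPM in astrocytes. Its level was 193, 159 and 146 CPM in oligodendrocytes and 96.6, 81.7 and 106 CPM in precursors, so astrocytes and oligodendrocytes overlapped. It was at most 31.1 CPM in any library of the microglial, endothelial and mural classes. Against the mean of the other 5 classes edgeR gave a log2 fold change of 3.30 (SE 0.28, adjusted p = 3.92e-16). Kcnj16, which pairs with Kcnj10 in astrocytes, stood at 15.3, 45.3 and 87.3 CPM in astrocytes and 0, 16.3 and 45.3 CPM in precursors, but at 0, 4.23 and 5.81 CPM in oligodendrocytes. It failed the filter on low counts and was not tested.

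Kcnk1, a weakly rectifying leak channel, stood at 198, 317 and 218 CPM in astrocytes against 15.4 ± 16.6 CPM in the other non-neuronal classes (edgeR log2 fold change 4.85 with SE 0.29, adjusted p = 6.19e-24). Pvalb cells reached 264 and 239 CPM in libraries 1 and 2, so Kcnk1 was not separate from neurons. Kcne1l, a small single-span subunit of the KCNE type, stood at 109, 135 and 72.9 CPM, and at no more than 9.17 CPM in any library of any other class (edgeR adjusted p = 1.88e-20 against the other non-neuronal classes). It passed the filter on low counts only through the astrocyte sums, so its p-value is not support apart from these levels. Kcnn2, a small-conductance calcium-activated pore, stood at 40.0, 33.2 and 61.2 CPM in astrocytes and had 0 UMIs in microglia, endothelial and mural cells (edgeR adjusted p = 6.1e-14). Those 3 genes and Kcnj10 held under every alternative run. Also called higher were Kcna2 (37.7 ± 17.6 CPM), Kcnc1 (25.0 ± 3.92 CPM), Kcnc4 (5.96 ± 1.93 CPM; adjusted p = 0.0829 without library 2), Kcnk2 (55.3 ± 20.4 CPM; 0.0642 with no replicate block, 0.0521 without TMM) and Kcnip3 (69.0 ± 10.1 CPM). In neurons Kcnc1 stood at 193 ± 50.3 CPM, and spiny markers stood in astrocytes at 1.42%, 10.2% and 4.11% of their spiny level. Kcnq1ot1 was lower (7.63, 16.6 and 11.7 CPM against 73.7 ± 28.1 CPM), as was Kcnj8 with 1 UMI (adjusted p = 0.00617; 1 without library 1, 0.0926 without library 3 and 1 with the stricter gate). Of 16 partners tested, 4 were higher, including the pump subunits Atp1b2 (1496 ± 67.7 against 192 ± 34.5 CPM) and Atp1b1, and Amigo1, and 2 were lower, including Slc12a2.

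Oligodendrocyte precursors had 11 higher genes and 0 lower, where 18.9% of all genes were called, 10.5% higher and 8.34% lower (edgeR, with 14 of 43 at an unadjusted p under 0.05; DESeq2 called 13 higher and 0 lower). Over the tested channel genes the median log2 fold change was 0.23, and over all genes -0.11. Without library 3 the count was 5, and without library 2 it was 8. They included 2 of 2 tested Kv4 pores and 2 of 4 KChIP subunits. Kcnip3 stood at 258, 196 and 242 CPM in precursors, against 25.1 ± 4.57 CPM in the other non-neuronal classes (edgeR log2 fold change 3.23 with SE 0.34, adjusted p = 6.89e-12). That level overlapped the glutamatergic cells and lay above the 47.8, 53.0 and 73.7 CPM of the spiny cells. Kcnd2 stood at 32.2, 139 and 159 CPM against 14.3 ± 13.2 CPM (edgeR log2 fold change 2.69 with SE 0.44, adjusted p = 4.67e-06), or 44.8% of its spiny level. Kcnd3, the other Kv4 pore, stood at 64.4, 24.5 and 90.7 CPM against 4.15 ± 1.57 CPM (edgeR log2 fold change 3.48 with SE 0.58, adjusted p = 2.22e-06; 0.0855 without library 3). Kcnip1 stood at 64.4, 32.7 and 45.3 CPM against 1.15 ± 0.656 CPM (edgeR adjusted p = 8.38e-06), from 12 UMIs.

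Kcnk2 in precursors stood at 32.2, 147 and 257 CPM against 23.3 ± 13.3 CPM (edgeR log2 fold change 2.60 with SE 0.52, adjusted p = 0.000325), or 53.4% of its spiny level. Kcna1 was at 64.4, 16.3 and 174 CPM (edgeR adjusted p = 3.23e-06; 0.254 without library 3), but oligodendrocytes were higher still. Kcnmb4 rested on 9 UMIs (adjusted p = 0.0144; 0.0741 without library 3) and Kcnma1 on 10 (0.0359; 0.133 without library 2, 0.256 without library 3, 0.0634 with the stricter gate, 0.0804 in deeper cells of at least 1000 UMIs and 0.0605 with doublets kept). Kcnj3, Kcnk1 and Kcnq1ot1, named after their values were seen, complete the 11. Of 16 partners tested, the Kv4 partners Dpp6 (100 ± 31.2 against 6.91 ± 6.34 CPM, edgeR log2 fold change 3.33 with SE 0.45, adjusted p = 2.47e-08) and Dpp10 (adjusted p = 0.0094; 0.143 without library 1, 0.0706 without library 3, 0.0533 with the stricter gate and 0.114 in deeper cells) were higher and 0 were lower.

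Mural cells, the smooth muscle cells and pericytes of vessel walls, had 5 higher and 4 lower genes against the other non-neuronal classes, where 15.8% of all genes were called, 10.1% higher and 5.68% lower (edgeR). The median log2 fold change was -0.38 over the tested genes and -0.14 over all genes. The count was 4, all higher, without library 2, and 6 without library 3. DESeq2 gave 4 higher and 1 lower. Kcnj8, the pore of the vascular ATP-sensitive potassium channel, stood at 213, 434 and 671 CPM and at no more than 32.2 CPM in any library of any other class (edgeR log2 fold change 7.29 with SE 0.40, adjusted p = 2.99e-22). Abcc9, the sulfonylurea receptor that assembles with it, stood at 426, 548 and 575 CPM in mural cells and at most at 40.2 CPM elsewhere (edgeR adjusted p = 1.05e-28). Both genes thus had their highest level in the same class in all 3 libraries. They passed the filter on low counts only through the mural sums, so their p-values are not support apart from these levels.

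Other mural genes were auxiliary subunits and a leak channel. Kcne4, of the KCNE type, stood at 107, 92.7 and 133 CPM and had 5 UMIs in the other 9 classes together (edgeR adjusted p = 2.12e-14; DESeq2 adjusted p = 0.22). Kcnmb1, the smooth muscle BK beta subunit, stood at 133, 88.5 and 81.1 CPM, with 4 UMIs in the other classes (edgeR adjusted p = 2.54e-13). Kcne4 and Kcnmb1 passed the filter on low counts only through the mural sums, so their p-values are not support apart from these levels. The BK pore Kcnma1 stood at 0, 12.6 and 0 CPM in mural cells, from 3 UMIs. Kcnk3, an acid-sensitive leak channel, stood at 107, 33.7 and 59.0 CPM against 5.64 ± 1.71 CPM (edgeR log2 fold change 3.84 with SE 0.57, adjusted p = 7.51e-08). Kcnab1 was called at 0, 105 and 29.5 CPM, and lost the call without library 2 (adjusted p = 0.42). Lower in mural cells were Kcna1, with 0 UMIs (up to 7.31 CPM; adjusted p = 0.00619; 1 without library 2, 0.22 without library 3 and 0.0501 with DESeq2), Kcnj10 (0, 4.21 and 14.7 CPM; 0.0025; 0.105 without library 2), Kcnk1 (0.0275; 0.234 without library 2 and 0.149 without library 3) and Kcnq3 (0.0303; 0.0504, 0.193 and 0.194 without libraries 1, 2 and 3). Kcnk1 kept its call under 4 of 10 alternatives, losing it also with DESeq2 (0.0890), no replicate block (0.128), the stricter gate (0.111) and deeper cells (0.0759). Kcnq3 kept its call under 3 of 10, losing it also with DESeq2 (0.107), without TMM (0.0687), in deeper cells (0.0784) and with doublets kept (0.107). Of 16 partners tested, 4 were higher, including Abcc9, Atp1b2 and Slc12a2, and 1 was lower.

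**Figure D3:**
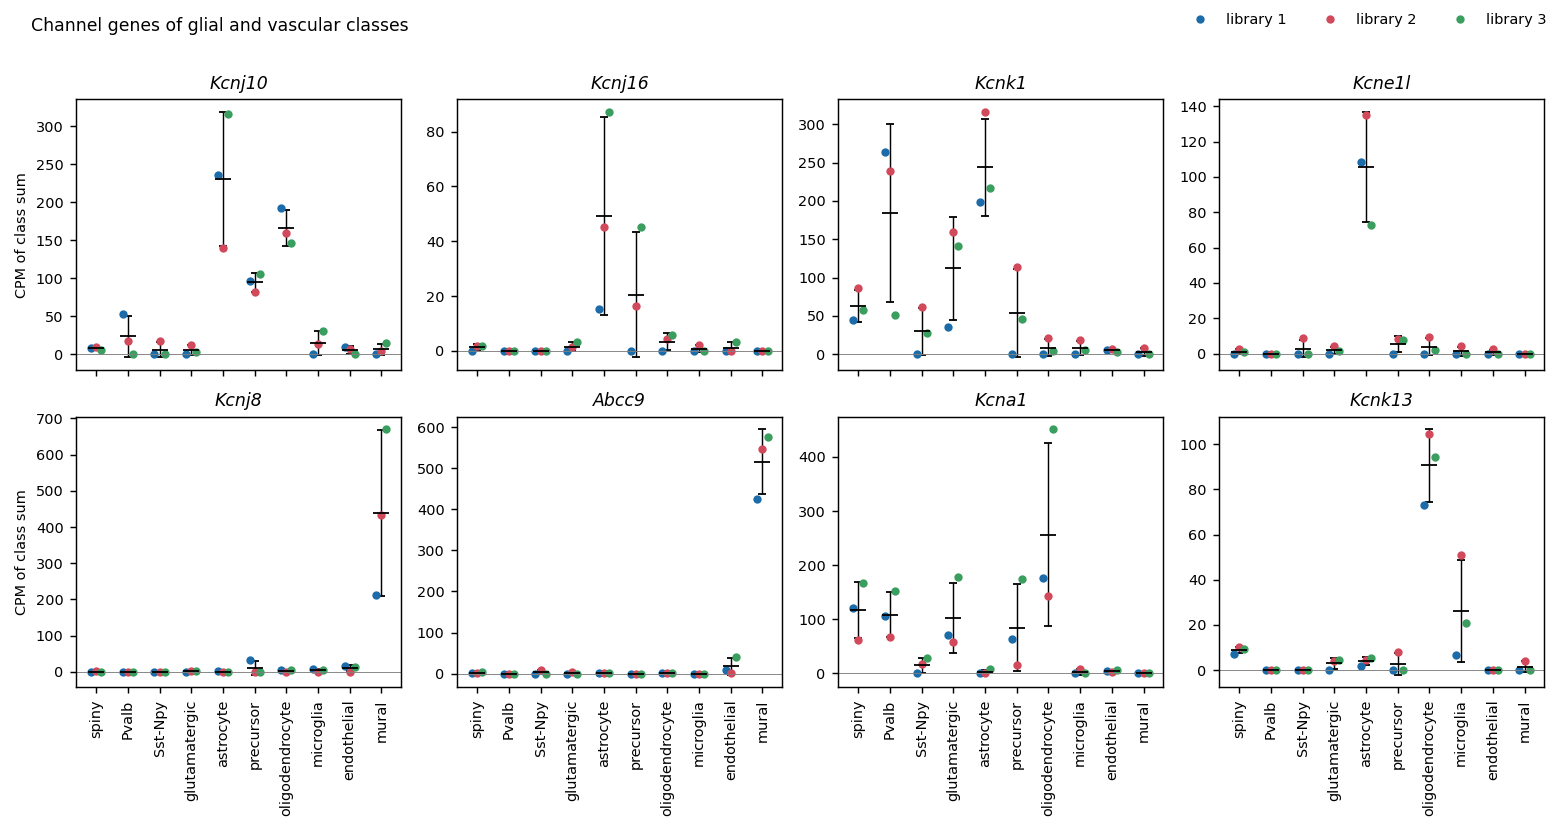
CPM of 7 channel genes and of the partner Abcc9 in the summed cells of each of 10 classes, with 1 dot per library and the mean and SD over 3 libraries in black. Kcnj8 and Abcc9 stand apart in mural cells and Kcne1l in astrocytes, while Kcnj10 is shared by astrocytes, oligodendrocytes and precursors.

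The mural list holds genes of smooth muscle (Acta2, Tagln, Myh11) beside genes of pericytes, so the class was split, after its levels were seen, into 99 cells with at least 2 of those 3 contractile genes and 174 cells with 0 of them. No test was made. Kcnj8 stood at 87.8, 70.2 and 18.9 CPM in the contractile cells and 217, 814 and 1169 CPM in the others, from 10 and 180 UMIs. Abcc9 stood at 0, 61.4 and 94.3 CPM against 706, 1032 and 935 CPM, from 12 and 194 UMIs. Both were higher in the non-contractile cells of every library. Kcnk3 lay the other way, at 351, 70.2 and 132 CPM in contractile cells from 19 UMIs, with 1 UMI in the other cells. Kcnmb1 also did, at 263, 105 and 113 against 54.3, 66.3 and 51.9 CPM, from 21 and 12 UMIs. Kcne4 overlapped, at 0, 132 and 113 against 217, 47.3 and 143 CPM. Library 1 had 13 contractile cells, so its values rest on 0 to 4 UMIs per gene.

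**Figure D4:**
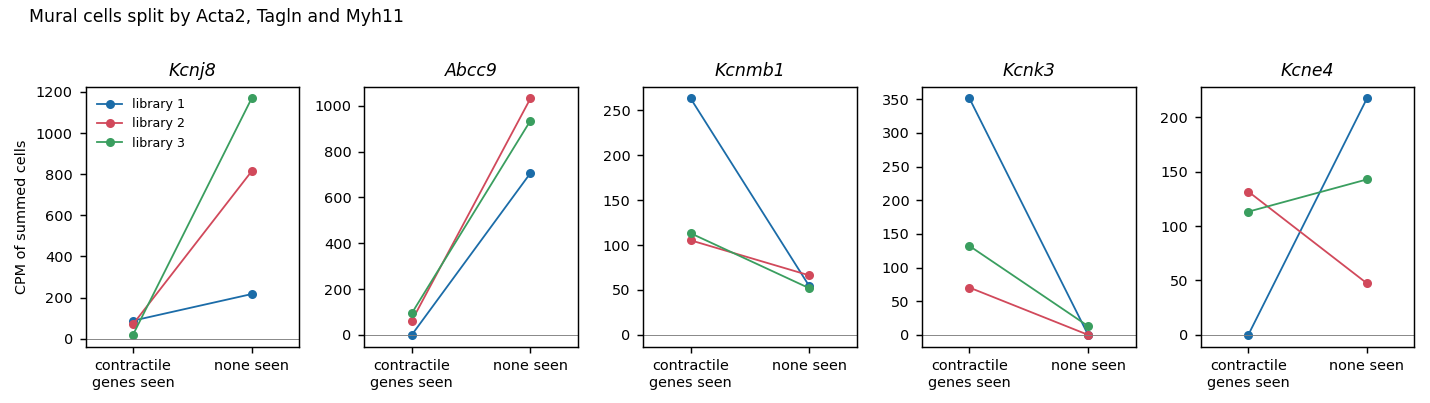
CPM of 4 channel genes and Abcc9 in mural cells with at least 2 contractile genes (left of each panel) and with 0 of them (right), with 1 line per library. Kcnj8 and Abcc9 are higher at the right and Kcnmb1 and Kcnk3 at the left in all 3 libraries, while Kcne4 crosses.

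In the classes with no comparison of their own, 3 patterns stood out and are given as levels. Kcna1 stood at 176, 143 and 452 CPM in oligodendrocytes, or 220% of its spiny level, and was highest in library 3 in the spiny, Pvalb, Sst-Npy, glutamatergic and precursor classes too. The spiny list stood at 3.46% in oligodendrocytes. Kcnk13 stood at 72.9, 104 and 94.4 CPM in oligodendrocytes and 6.52, 51.0 and 20.8 CPM in microglia, and oligodendrocytes lay above every other class in every library. Microglia held the highest mean level of Kcnk6, a leak channel, at 6.52, 42.1 and 51.9 CPM, and of Kcnn4, a calcium-activated channel of immune cells, at 26.1, 15.5 and 20.8 CPM from 15 UMIs. No gene was highest in endothelial cells, where Kcnj8 stood at 15.0, 0 and 13.4 CPM.

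Some genes overlapped between several neuron classes. Kcnq3 stood at 122, 170 and 244 CPM in spiny, 264, 119 and 306 CPM in Pvalb and 70.7, 234 and 230 CPM in glutamatergic cells, with overlapping libraries. In Sst-Npy cells it stood at 74.9, 69.8 and 0 CPM, or 27.0% of its spiny level. Kcnt1, a sodium-activated pore, stood in Pvalb cells at 142%, in glutamatergic cells at 72.1% and in Sst-Npy cells at 71.7% of its spiny level, and its Pvalb libraries ranged from 25.5 to 317 CPM. Kcna4 lay between 1.76% and 3.91% and Kcnj4 between 3.71% and 9.80% over the 6 non-neuronal classes. Kcnk2, Kcnd2 and Kcna1 in precursors (53.4%, 44.8% and 72.6%), Kcnk2 in astrocytes (20.3%) and Kcnab1 in mural cells (20.4%) stood above the 4.88%, 4.53% and 4.56% of the list in those classes.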

How the data were processed

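Single cells of 3 libraries of 1 group were read as UMI counts. Per the labels, the authors used the 10x Genomics 3′ v2 kit, and the deposited values are raw counts per gene and cell. Per the submitters' processing notes they come from Cell Ranger 3.0 on mm10, and per the file headers from version 3.0.0. The annotation release, the calling of cells and any equalisation of depth are not given in the sources used here. A cell was kept (10291 of 11625) when it had 300 or more genes and no more than 20% of its UMIs from mitochondria, and the highest Scrublet scores (scanpy 1.11.5) were removed as doublets at 0.8% per 1000 cells, 44, 296 and 28 cells.

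A cell joined a class with UMIs of at least 3 of its 8 markers and more than of any of 15 other lists (cholinergic, neuroblast, ependymal, fibroblast, macrophage and T cell lists held the cells set aside). Neurons also needed 2 of 6 pan-neuronal genes, and D1 or D2 cells 2 of 5 markers. Counts were summed per class and library (at least 5 cells), because cells are not replicates, and tested with edgeR 4.0.16 (quasi-likelihood, robust, legacy off, TMM, filterByExpr, library as block) with Benjamini-Hochberg adjustment over all genes at 0.05. Library is a block because the class sums compared share a library. Standard errors are the log2 fold change over the square root of F. DESeq2 1.42.0 was an alternative, beside scaling without TMM, no filter, no block, a stricter gate, deeper cells, kept doublets and leaving out each library. The scripts were tested on simulated data. Named genes are up to 6 higher and 6 lower called genes per comparison with 1 direction in all 3 libraries, 16 listed channel genes and the partners that passed. The genes and lists were chosen with earlier results of these data known. Some listed genes and sequences are not reported here.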

Additional observations from a re-analysis of the deposited data

How the results depend on the processing

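The counts of called genes kept within 1.5 times of the reported value in 69 of 90 alternatives, were lower in 19 and higher in 2, and no called gene named here changed sign in them. With no replicate block the count was 11 for spiny cells, 3 for Sst-Npy cells and 0 for D1 over D2 cells, and other counts stayed within 1.5 times. DESeq2 called 3 genes in Pvalb cells, 3 in Sst-Npy cells, 5 in mural cells and 1 in D1 over D2 cells. Scaling without TMM called 4 in Sst-Npy cells; it moved the median log2 fold change of all genes in neurons over non-neuronal classes from -0.14 to 0.39, and by class from 0.31 to 0.14 in spiny, -0.21 to -0.06 in Pvalb, -0.27 to -0.08 in Sst-Npy, 0.24 to 0.08 in glutamatergic, 0.04 to -0.09 in astrocyte, -0.11 to 0.37 in precursor and -0.14 to 0.01 in mural cells. With no low-count filter 8 genes were called in Pvalb cells and 18 in astrocytes. A stricter gate gave 3 in Pvalb cells, where it also dropped the sum of library 3, and 1 in D1 over D2 cells. Leaving out each library gave 26 to 35 genes in neurons, 11 to 19 in spiny, 3 to 4 in Pvalb, 3 to 4 in Sst-Npy, 11 to 18 in glutamatergic, 10 to 11 in astrocyte, 5 to 11 in precursor and 4 to 9 in mural cells, and 1 to 4 in D1 over D2 cells. Smaller fits have fewer sums; beyond that the cause was not tested. Of 85 calls of named channel genes, 46 held under every alternative run on them and 39 were lost under at least 1. Without library 2, Kcnd2 had 0 UMIs in Pvalb cells and Kcnj4 had 0 in Sst-Npy cells, and both lost their call in neurons (edgeR adjusted p = 1). Depth limits Pvalb, Sst-Npy and precursor cells most, where 3 UMIs over the class are 17.1, 18.3 and 10.5 CPM.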
